A study of Mus musculus with 12 samples.

Results

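The 35 genes described here mark the skeletal muscle lineage, from satellite cell regulators to sarcomere proteins. They were measured in cultures of fibro/adipogenic progenitors (FAPs), where they serve as markers of residual muscle cells. They come from a fixed list of names, and each was taken from the array row (transcript cluster) whose only platform gene symbol is that gene. All 35 were found, with 1 cluster each, among 19938 genes and 21789 clusters with a single symbol.

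FAPs are mesenchymal cells of muscle that can become fibroblasts or adipocytes. They came from uninjured hindlimb muscle of wild-type male C57/Bl6 mice aged 8 to 12 weeks, and every biological replicate combined the cells of 2 mice. How the cells were separated from muscle is not given in the sources used here. All cultures grew for 2.5 days in medium with fetal bovine serum and then received an antisense oligonucleotide (AMO, 10 µM) for 48 hours in medium with horse serum. A second transfection with the same AMO, alone or with PDGF-AA, followed for 48 hours in Opti-Mem. The 6 groups were control AMO, pA AMO (against the intronic polyadenylation site of PDGFRα) and 5'ss AMO (against an intronic 5' splice site of PDGFRα), each with 0 or 50 uM PDGF-AA as the labels give the dose. Groups without PDGF-AA are called AMO alone, and those with it AMO plus PDGF-AA. Each group had 2 Affymetrix arrays, numbered replicate 1 and 2, and the number of arrays limits the precision. Values are log2 expression values, on which a difference of 1 is a doubling.

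Skeletal muscle is built and repaired by satellite cells. These cells express the transcription factor Pax7, act through the myogenic regulators Myf5 and Myod1 when activated, and then turn on Myog when they leave the cell cycle. Differentiating myoblasts fuse into multinucleated myotubes, assemble acetylcholine receptors, and make the actins, troponins and myosins of the sarcomere. Embryonic and perinatal isoforms, such as the myosin heavy chains Myh3 and Myh8, come first and adult isoforms such as Myh1 later. FAPs do not belong to this lineage. In bulk cultures, fewer muscle cells and less of each RNA per muscle cell cannot be told apart.

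The label of the cultures was checked against marker lists. All 14 measured FAP and fibroblast markers of 16 listed were above the mark below which 40 percent of all 35556 clusters lie (5.52), and their mean level ran only from 11.20 to 11.33 over the 12 arrays. The members' mean level ran from 6.68 to 7.65. The other lists ran from 7.09 to 8.57 (adipocyte, 1 of 15 genes below the mark), 7.13 to 7.57 (tendon, 2 of 9), 6.79 to 7.19 (smooth muscle and pericyte, 2 of 12), 6.84 to 7.02 (Schwann, 1 of 7), 6.06 to 6.26 (endothelial, 2 of 10) and 5.52 to 5.79 (macrophage and leukocyte, 5 of 12). Since lists rest on different probes, these levels do not rank cell types. Of the 35 muscle genes only Myf5 and Myf6 were below it. Acta1, the skeletal muscle actin, ranked at the 93.1 percentile of the 21789 clusters with 1 symbol by its mean, and Actc1 at the 77.0 percentile. Levels of different clusters depend on their probes, so these ranks place a signal among these clusters and do not order transcripts by abundance. Passing the mark does not show that a culture expressed a gene.

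Promoters of members were searched for short motifs as a description. Whether motifs relate to how these genes moved from array to array was not tested. Of the 35 members, 28 had a promoter in the RefSeq table (build GRCm38.p6), with 33 start sites. The 250 bases before each start were searched for CAGCTG, an E-box that reads the same on both strands and is a form of CANNTG bound by myogenic factors. It was present in 12 of 33 member windows (36.4%) and in 13.0% of all 32851 windows. Any CANNTG was present in 78.8% and 66.2%. The CArG box of serum response factor was searched as CC and GG around a fixed length of A or T. It was in the windows of Acta1 and Actc1 alone among members (6.06% of member windows, 1.47% of all). The MEF2 motif, searched as CTA and TAG around a shorter fixed length of A or T, was found only in the window of Ttn (3.03% and 0.508%). Looser forms of either motif were not searched, so a window without a match may still hold such a form. A match describes letters and not binding. The 150 bases up to the start are printed for Chrna1, 1 of 3 member genes with at least 2 CAGCTG (1.26% of all windows). They are also printed for Des, Mylpf and Acta1, which hold a match there and whose values differed widely between arrays. Myh3, Myh1 and Myl4, with ranges over the arrays of 1.951, 1.82 and 1.435, had no CAGCTG, MEF2 or CArG match. Musk, with a range of 0.375, had a CAGCTG. Capitals mark CAGCTG in Chrna1, Des and Mylpf and the CArG box in Acta1.
Chrna1 (chr2:73580339-73580488, minus strand): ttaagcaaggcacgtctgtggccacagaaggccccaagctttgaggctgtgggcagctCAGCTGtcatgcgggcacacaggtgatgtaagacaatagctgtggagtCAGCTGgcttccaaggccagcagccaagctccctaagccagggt
Des (chr1:75360142-75360291, plus strand): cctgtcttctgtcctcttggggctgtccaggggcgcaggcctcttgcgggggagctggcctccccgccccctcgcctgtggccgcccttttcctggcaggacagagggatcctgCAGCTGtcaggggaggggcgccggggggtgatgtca
Mylpf (chr7:127211458-127211607, plus strand): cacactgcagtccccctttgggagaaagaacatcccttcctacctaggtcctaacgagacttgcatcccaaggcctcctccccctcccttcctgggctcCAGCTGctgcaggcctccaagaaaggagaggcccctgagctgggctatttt
Acta1 (chr8:123894776-123894925, minus strand): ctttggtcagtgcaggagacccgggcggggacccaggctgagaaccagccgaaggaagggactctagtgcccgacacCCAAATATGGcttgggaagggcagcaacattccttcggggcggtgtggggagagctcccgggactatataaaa
The E-boxes begin 92 and 44 bases before the start in Chrna1, 36 in Des and 51 in Mylpf, and the CArG box begins 73 bases before it in Acta1.

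Across the arrays, sarcomere genes spread most. Acta1 read 10.83 and 9.16 in replicates 1 and 2 of control AMO alone, and 10.13 and 9.95 with PDGF-AA added. With pA AMO it read 11.05 and 9.98 without PDGF-AA and 10.26 and 9.73 with it. With 5'ss AMO the values were 9.58 and 10.04 without PDGF-AA, and 10.46 and 9.81 with it. The highest and lowest arrays therefore lay in groups that both lacked PDGF-AA, and the lowest was the partner of the second highest, 3.19-fold below it.

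Myh3, the embryonic myosin heavy chain, showed the widest range of any member (1.95). With control AMO it stood at 8.82 and 7.20 in replicates 1 and 2 without PDGF-AA and at 8.19 and 8.09 with it. With pA AMO it was 9.15 and 8.14 without PDGF-AA and 8.57 and 7.90 with it, and with 5'ss AMO 7.31 and 8.45 without and 8.72 and 7.78 with it. The values of every group overlapped those of the others. Replicate 1 was the higher array in 5 groups, and replicate 2 in 5'ss AMO alone.

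Desmin (Des), the muscle intermediate filament, followed the same order at its extremes. Its values in replicates 1 and 2 were 8.80 and 7.24 with control AMO, 9.08 and 8.16 under pA AMO, and 7.45 and 8.12 under 5'ss AMO, all without PDGF-AA. With PDGF-AA they were 8.00 and 8.00, 8.36 and 7.79, and 8.41 and 7.88 in the same order of AMOs. The control pair was far apart without PDGF-AA and nearly equal with it.

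**Figure D1:**
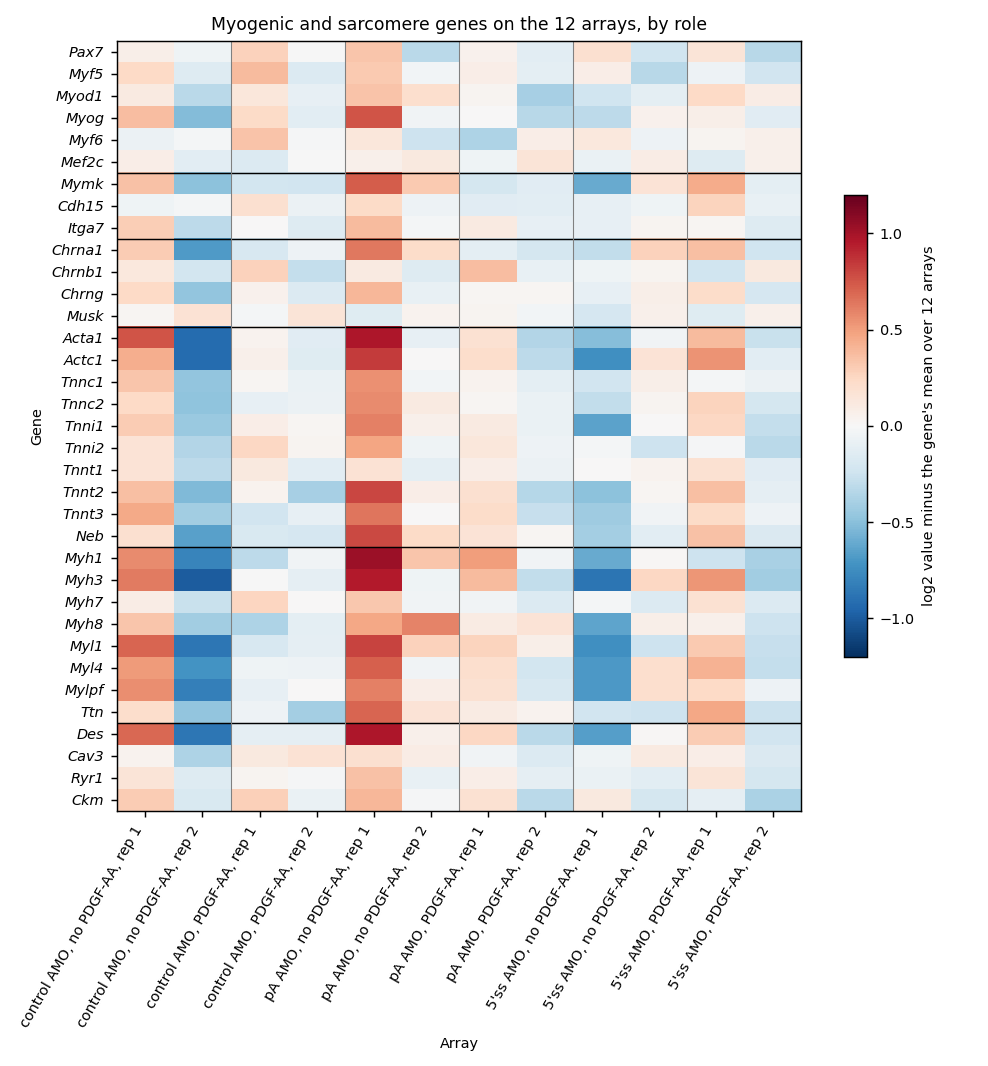
Each row is 1 of the 35 genes, in blocks by role, and each column is an array. Colour is the log2 value minus the gene's mean over the 12 arrays. The thin filament, thick filament and Des rows are red in replicate 1 of pA AMO alone and blue in replicate 2 of control AMO alone.

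Other thin filament genes repeated this layout with narrower ranges. Actc1, the cardiac actin also made in immature skeletal muscle, stood in replicates 1 and 2 at 8.93 and 7.57 with control AMO, 9.32 and 8.49 under pA AMO, and 7.75 and 8.65 under 5'ss AMO, all lacking PDGF-AA. In the PDGF-AA groups it stood at 8.55 and 8.34, 8.69 and 8.17, and 9.02 and 8.36. Its extremes fell on the same arrays as those of Acta1. Tnnt3, the fast troponin T, ranged from 7.78 to 8.85. In replicates 1 and 2 without PDGF-AA its values were 8.65 and 7.78 with control AMO, 8.85 and 8.21 under pA AMO, and 7.78 and 8.15 under 5'ss AMO. The corresponding pairs with PDGF-AA were 7.97 and 8.10, 8.42 and 7.93, and 8.43 and 8.14. The giant thin filament protein nebulin (Neb) ran from 6.29 to 7.73 and the cardiac and embryonic troponin T, Tnnt2, from 7.41 to 8.74. Slow troponin T (Tnnt1) was narrow, from 5.66 to 6.15.

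Among thick filament genes, the fast regulatory light chain Mylpf was at 8.12 and 6.74 in replicates 1 and 2 of control AMO alone and at 7.46 and 7.57 with PDGF-AA added. With pA AMO Mylpf was at 8.16 and 7.64 without PDGF-AA and 7.75 and 7.37 with it, and with 5'ss AMO at 6.88 and 7.76 without and 7.81 and 7.50 with it. Adult Myh1 spanned 6.00 to 7.82, perinatal Myh8 6.34 to 7.56, the light chains Myl1 7.03 to 8.71 and Myl4 7.68 to 9.12, and titin (Ttn) 5.78 to 6.95. Slow myosin Myh7 ranged only from 5.84 to 6.43. Myh1, Myh3 and Myh8 are close paralogs, as are Acta1 and Actc1, so how far their probes share signal is uncertain.

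Regulators varied less. Pax7 read 6.62 and 6.48 in replicates 1 and 2 of control AMO alone, and 6.82 and 6.54 with PDGF-AA added. With pA AMO it was 6.87 and 6.21 without PDGF-AA and 6.59 and 6.42 with it, and with 5'ss AMO 6.74 and 6.30 without and 6.70 and 6.21 with it. Replicate 1 was the higher array of every group, and no replicate 1 array overlapped any replicate 2 array.

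Myod1 gave 6.89 and 6.46 (control AMO), 7.13 and 6.99 (pA AMO) and 6.54 and 6.67 (5'ss AMO) without PDGF-AA, in replicates 1 and 2. With PDGF-AA it gave 6.92 and 6.69, 6.81 and 6.39, and 7.03 and 6.87. Myod1 was lower with PDGF-AA in both pA AMO arrays and higher in both 5'ss AMO arrays than in the arrays without it. Myog, which acts later in differentiation, had the wider range of 6.23 to 7.51. Its pairs were 7.13 and 6.23, 7.51 and 6.71, and 6.44 and 6.80 without PDGF-AA, and 6.98 and 6.62, 6.76 and 6.42, and 6.82 and 6.62 with it, again for control, pA and 5'ss AMO. Myog shared its 2 extreme arrays with Acta1 and Myh3. Myf5, an early regulator, was dim, at 4.97 and 4.58, 5.05 and 4.71, and 4.82 and 4.41 without PDGF-AA, and at 5.12 and 4.57, 4.82 and 4.62, and 4.67 and 4.51 with it, and was higher in replicate 1 of every group. Myf6 was also dim (4.95 to 5.66). Mef2c, a cofactor of the myogenic factors that other cell types also express, had the narrowest range of all members (7.05 to 7.37).

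For fusion and adhesion, Mymk, the membrane protein required for myoblast fusion, read 8.31 and 7.47 with control AMO, 8.69 and 8.27 under pA AMO, and 7.36 and 8.12 under 5'ss AMO in replicates 1 and 2 without PDGF-AA. With PDGF-AA the pairs were 7.74 and 7.73, 7.75 and 7.83, and 8.40 and 7.85. Both pA AMO arrays without PDGF-AA lay above both with it. Cdh15, the muscle cadherin of satellite cells, moved little. Its pairs were 6.14 and 6.17, 6.42 and 6.13, and 6.09 and 6.14 without PDGF-AA, and 6.38 and 6.12, 6.05 and 6.06, and 6.46 and 6.10 with it, in the same order. Itga7, the laminin receptor subunit of muscle, gave 7.41 and 6.80, 7.49 and 7.09, and 7.02 and 7.15 without PDGF-AA, and 7.12 and 6.96, 7.22 and 7.02, and 7.14 and 6.96 with it.

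Among the synaptic genes Chrna1 moved most. This ligand-binding alpha subunit of the acetylcholine receptor read 7.18 and 6.20 with control AMO, 7.51 and 7.10 under pA AMO, and 6.58 and 7.15 under 5'ss AMO, all without PDGF-AA. With PDGF-AA it read 6.69 and 6.82, 6.76 and 6.66, and 7.24 and 6.63. Chrng, the fetal gamma subunit, ran from 6.04 to 6.91 and the beta subunit Chrnb1 from 5.86 to 6.51. Musk, the kinase that clusters the receptors, stayed between 7.56 and 7.93. Of the remaining members, muscle creatine kinase Ckm lay between 6.62 and 7.40, the calcium release channel Ryr1 between 6.04 and 6.60, and caveolin 3 (Cav3) between 5.80 and 6.36.

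The genes with the smallest p in a comparison below are given in full too. For PDGF-AA and AMOs that p is from the fit without the replicate number. Values are listed as replicates 1 and 2 of control, pA and 5'ss AMO in that order. Ckm read 7.31 and 6.82, 7.40 and 6.99, and 7.12 and 6.80 without PDGF-AA, and 7.29 and 6.92, 7.19 and 6.68, and 6.90 and 6.62 with it. Cav3 read 6.22 and 5.80, 6.36 and 6.26, and 6.12 and 6.28 without it, and 6.29 and 6.34, 6.13 and 6.01, and 6.26 and 6.00 with it. Ckm was higher in replicate 1 of every group, while Cav3 was low only in replicate 2 of control AMO alone among the groups lacking PDGF-AA.

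Neb, the giant protein of the thin filament, read 7.13 and 6.29, 7.73 and 7.17, and 6.53 and 6.81 without PDGF-AA, and 6.76 and 6.73, 7.10 and 6.96, and 7.29 and 6.77 with it. Myh8 read 7.31 and 6.55, 7.43 and 7.56, and 6.34 and 7.04 without it, and 6.60 and 6.85, 7.07 and 7.13, and 7.03 and 6.72 with it. Musk read 7.79 and 7.93, 7.61 and 7.80, and 7.56 and 7.82 without it, and 7.74 and 7.92, 7.80 and 7.72, and 7.62 and 7.82 with it. Both pA AMO arrays of Neb and Myh8 were above the 5'ss AMO arrays in the groups lacking PDGF-AA, and Musk was higher in replicate 2 of all groups but pA AMO plus PDGF-AA.

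**Figure D2:**
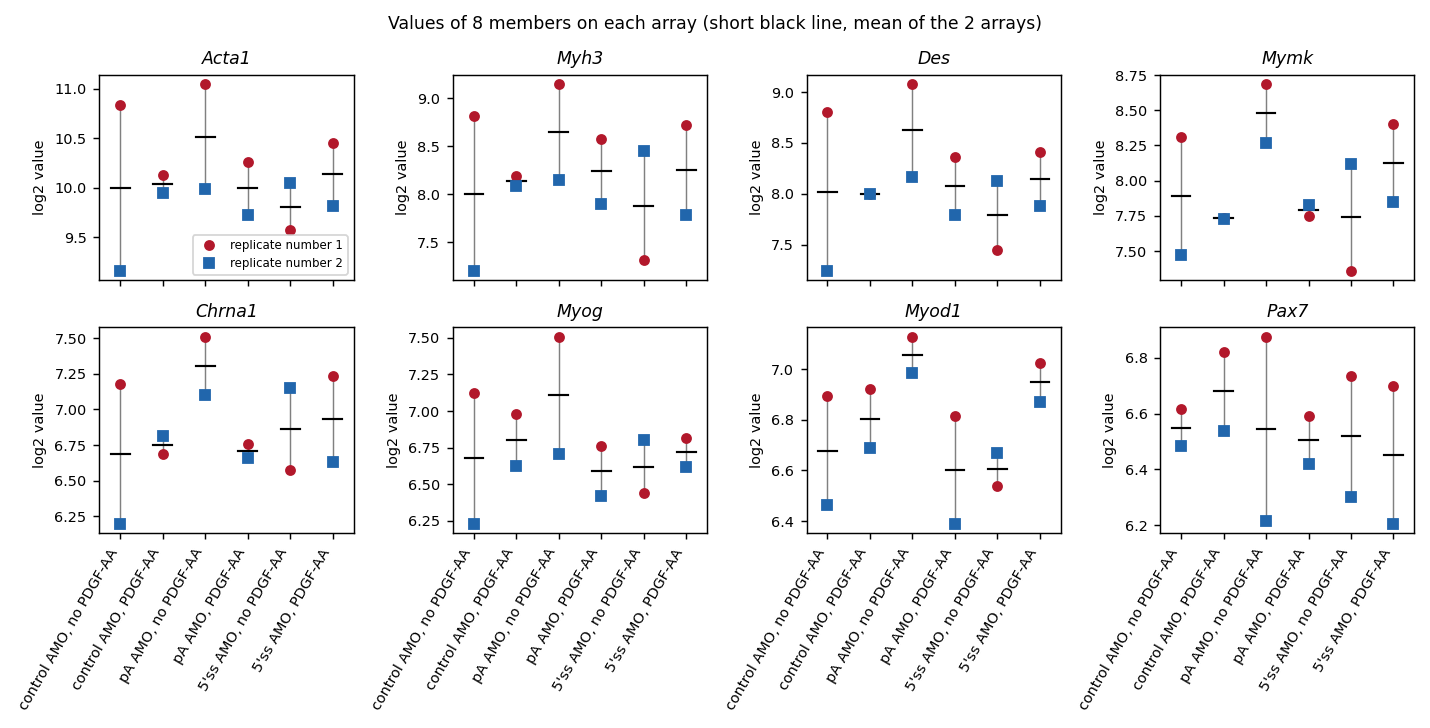
Log2 values of 8 genes by group, with a circle for replicate number 1, a square for number 2 and a short black line at their mean. The Acta1 pair of control AMO alone spans 9.16 to 10.83, and the Pax7 circles all lie above the squares.

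The arrays ordered most members alike. Of the 35 genes, 27 were highest in replicate 1 of pA AMO alone, and 21 were lowest in replicate 2 of control AMO alone, with 5 more lowest in replicate 1 of 5'ss AMO alone. As a description over the 12 arrays, which share a treatment within a group and possibly more within a replicate number, 16 members had a Pearson r above 0.9 with the mean of the other members and 30 had one above 0.5. Des was at 0.99, Acta1 at 0.98 and Myog at 0.94. The 5 at or under 0.5 were Pax7 (0.39), Chrnb1 (0.34), Mef2c (0.23), Myf6 (-0.07) and Musk (-0.39). Neither these r values nor the counts of highest and lowest arrays were computed over all clusters. By role, the mean deviation from each gene's own mean spanned 1.37 for the 8 thick filament genes and 1.19 for the 10 thin filament genes. It spanned 0.53 for the 6 regulators and 0.55 for the 4 synaptic genes.

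Spread within groups was large for these genes. The residual SD around the 6 group means had a median of 0.31 over the members and 0.14 over all 21789 clusters. It was 0.72 for Myh3, 0.64 for Acta1 and 0.60 for Des. In total 25 of 35 members lay above 0.24, the value that 10% of all clusters exceed, while Mef2c (0.12) and Musk (0.13) were below the median of all clusters. The range over the 12 arrays exceeded 1 for 19 of 35 members and for 2.35% of all clusters. Between the 2 arrays of control AMO alone, 8 members differed by more than 1 (0.147% of all clusters did), against 0 in control AMO plus PDGF-AA (0.202%), 2 in pA AMO alone (0.0597%), 0 in pA AMO plus PDGF-AA (0.142%), 1 in 5'ss AMO alone (0.101%) and 0 in 5'ss AMO plus PDGF-AA (0.151%).

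**Figure D3:**
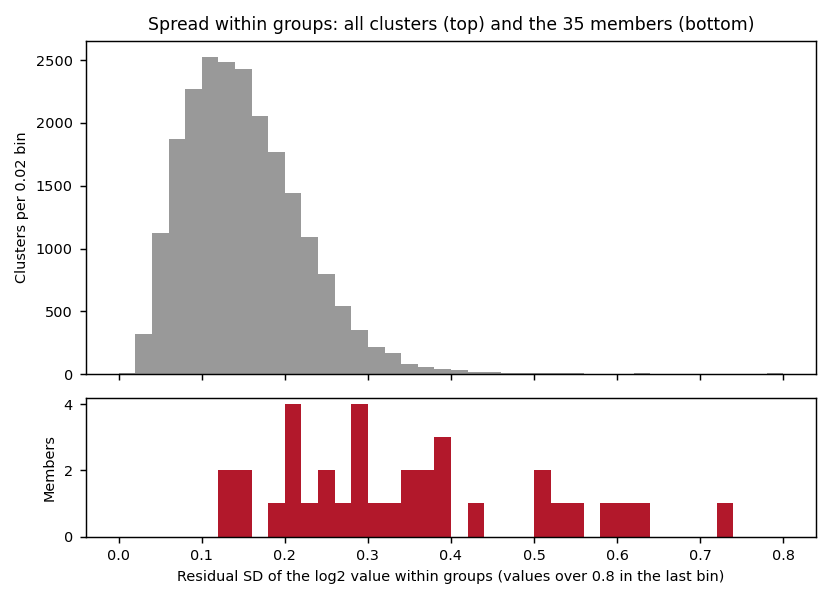
Residual SD of the log2 value within groups, in bins of 0.02, for all 21789 clusters above and the 35 members below. The members' median is 0.31 and that of all clusters 0.14.

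PDGF-AA was first compared on average over the AMOs, to ask whether it shifts the muscle signal. The member with the smallest p was Ckm, at -0.14 (SE 0.135, 6 arrays against 6). Myh1 was at -0.18 and Actc1 at 0.07, the lowest and highest of the list. By limma with Benjamini-Hochberg adjustment 0 of 35 members passed an adjusted p of 0.05 (0% of all clusters, smallest adjusted p of a member 1), and 0 with the replicate number as a block (0.0964% of all clusters, smallest 0.445). At an unadjusted p under 0.05 there were 0 members (3.39% of clusters) without the block and 1 with it (8.02%). The median change was -0.01 (members) and 0.00 (all clusters), with 15 members above 0 (50.8% of clusters). That near-zero average covers values of opposite sign in the single AMOs and replicates.

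With control AMO the replicate numbers disagreed. Myh3 changed with PDGF-AA by -0.63 in replicate 1 and 0.89 in replicate 2, Acta1 by -0.71 and 0.79, and Des by -0.80 and 0.76. In all 25 of 35 members were lower in replicate 1 and higher in replicate 2, as were 25.4% of all clusters, and for 7 members both changes exceeded 0.5 in opposite directions (0.11%). The members' median was -0.27 in replicate 1 and 0.31 in replicate 2, which average to 0.05. By limma 0 members passed (0% of clusters), with and without the block, and 0 at an unadjusted p under 0.05 (4.81%), or 2 with the block (12.7%). Cav3, the member with the smallest p without the block, was higher by 0.31 (SE 0.146, 2 arrays against 2, adjusted p = 0.984). It and Myf6 were the members whose groups did not overlap, both higher (17.5% of clusters). With the block the smallest p was that of Myh7, higher by 0.22 (SE 0.088, adjusted p = 0.35). The median was 0.40 with replicate 1 of control AMO alone left out and -0.33 with the group's replicate 2 left out.

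With pA AMO most members lay lower in both replicates. Mymk was lower by a log2 change of -0.94 and -0.44 in replicates 1 and 2, Chrna1 by -0.75 and -0.44, Myod1 by -0.32 and -0.60, and Acta1 by -0.79 and -0.26. Below 0 in both replicate numbers were 28 of 35 members (27.6% of all clusters), and the groups did not overlap for 10 (12.3%): Myod1, Mymk, Cdh15, Cav3, Chrna1, Neb, Tnnc2, Myh8, Myl1 and Ttn. These counts come from genes that share their high and low arrays and are not independent of each other. The median was -0.34 over the members, with 33 of 35 below 0 (52.6% of clusters), and -0.01 over all clusters. By limma 0 members passed (0% of clusters), and 0 with the block (0%). Myod1, at -0.46 (SE 0.175), and Mymk, at -0.69 (SE 0.307), had an unadjusted p under 0.05 (2.37% of clusters) with an adjusted p of 1 each, and 4 members did with the block (5.9%). Chrnb1, at 0.17, and Musk, at 0.05, were the only members above 0. The members' median was -0.06 with replicate 1 of pA AMO alone left out, the array in which most members were highest, and -0.59 with the group's replicate 2 left out.

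With 5'ss AMO the replicates again differed in sign, with replicate 1 above 0. Myh3 changed with PDGF-AA by 1.41 in replicate 1 and -0.67 in replicate 2, Actc1 by 1.27 and -0.29, and Mymk by 1.04 and -0.27. The pattern of higher in replicate 1 and lower in replicate 2 held for 27 of 35 members and 26.4% of clusters. Myod1 was higher in both, at 0.48 and 0.20 (0.34 on average, SE 0.175, adjusted p = 1), and it alone did not overlap (9.13% of clusters, higher). By limma 0 members passed with or without the block (0% of clusters each), and 0 had an unadjusted p under 0.05 (1.64%), or 2 with the block (4.53%). The median change was 0.10 over the members and -0.01 over all clusters, and for the members -0.004 with replicate 1 of 5'ss AMO plus PDGF-AA left out and 0.34 with the group's replicate 2 left out. Leaving out replicate 1 or 2 of 5'ss AMO alone gave -0.001 and 0.28.

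**Figure D4:**
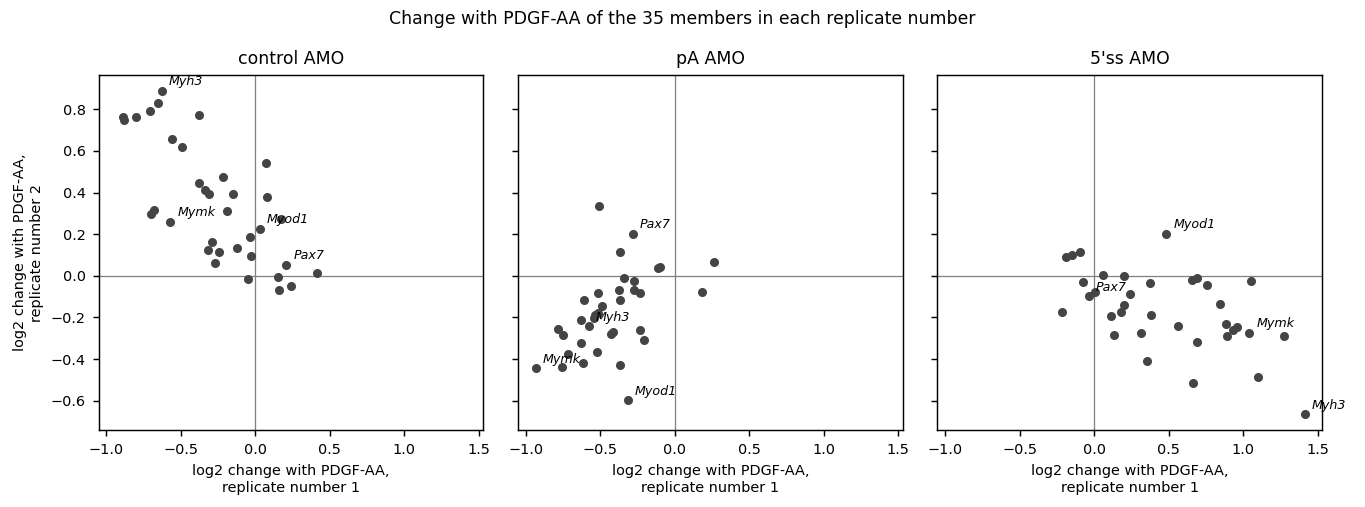
Log2 change with PDGF-AA of each of the 35 members in replicate number 1 (horizontal) and 2 (vertical), for control, pA and 5'ss AMO. Most points lie at upper left with control AMO (25 of 35), lower left with pA AMO (28) and lower right with 5'ss AMO (27).

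The PDGF-AA responses of the AMOs were compared directly, and each pair of responses shares arrays with the others. Myod1 differed between pA and 5'ss AMO by -0.80, the same size in replicates 1 and 2 (SE 0.248, adjusted p = 1). Mymk differed by -1.07 (SE 0.434), made up of -1.98 in replicate 1 and -0.17 in replicate 2. The median difference between pA and 5'ss AMO was -0.52 over the members, with 31 of 35 below 0 (49.8% of clusters), and -0.24 with replicate 1 of pA AMO alone left out. Between pA and control AMO it was -0.38 (32 of 35 below 0, 52.2% of clusters), with Cav3 at -0.55 (SE 0.206) and Myod1 at -0.58 (SE 0.248). That median was 0.01 with replicate 2 of control AMO alone left out, -0.06 with replicate 1 of pA AMO alone left out, and -0.74 with replicate 1 of control AMO alone left out. Between 5'ss and control AMO it was 0.07, with members' medians of 0.53 in replicate 1 and -0.49 in replicate 2. It was -0.28 with replicate 1 of control AMO alone left out and 0.43 with the group's replicate 2 left out. By limma 0 members passed for each of the 3 differences, with and without the block (0% of clusters in all 6 fits), while 2, 2 and 0 had an unadjusted p under 0.05 (1.92%, 2.59% and 2.95% of clusters, in the order given here) and 7, 5 and 0 with the block (5.31%, 8.55% and 7.94%).

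AMOs were also compared on average over the PDGF-AA doses, 4 arrays against 4. With pA AMO, Myh1 was at 0.60 (SE 0.282), Neb at 0.51 (SE 0.195) and Myh8 at 0.47 (SE 0.184) against control AMO, and 28 of 35 members were above 0 (45.2% of clusters, median 0.17 against -0.01 over all clusters). Against 5'ss AMO, Myh1 was at 0.76 (SE 0.282) and Myh8 at 0.52 (SE 0.184), and 32 of 35 members were above 0 (49.5%, median 0.20). The members' median was 0.33 in replicate 1 and -0.01 in replicate 2, and 16 members were higher in replicate 1 but lower in replicate 2 (21.1% of clusters). Myh8 was higher in all 4 pA AMO arrays than in the 4 with 5'ss AMO, at means of 7.30 and 6.78, and was the only member without overlap there (0.996% of clusters, higher). Between 5'ss and control AMO members lay near 0 (median -0.01), from -0.23 for Ckm to 0.18 for Chrna1. This average joins replicate medians of -0.21 and 0.20, with 26 of 35 members lower in replicate 1 and higher in replicate 2 (21.2% of clusters). It was 0.18 and -0.16 with replicate 1 or 2 of control AMO alone left out. The member with the smallest p there was Musk without the block, at -0.14 (SE 0.092). With the block it was Ckm, at -0.23 (SE 0.057, limma adjusted p = 0.226). By limma 0 members passed in these 3 comparisons without the block (0% of clusters in each) and 0 with it (0% of clusters for pA against control, 0.0138% for 5'ss against control and 0.0275% for pA against 5'ss AMO). At an unadjusted p under 0.05 there were 2 members for pA against control (3.25% of clusters), 2 for pA against 5'ss (3.47%) and 0 for 5'ss against control AMO (4.8%), and with the block 4 (9%), 8 (8.51%) and 4 (12.4%). The median for pA against control AMO was -0.02 with replicate 2 of control AMO alone left out and 0.36 with the group's replicate 1 left out, and that for pA against 5'ss AMO was 0.06 with replicate 1 of pA AMO alone left out and 0.32 with the group's replicate 2 left out.

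The replicate numbers were compared last, over 6 arrays of each. Ckm was higher in replicate 1 by 0.39 (SE 0.047, adjusted p = 0.00551), Pax7 by 0.36 (SE 0.072, 0.00966), Myf5 by 0.34 (SE 0.057, 0.00702) and the fast troponin I, Tnni2, by 0.33 (SE 0.059, 0.0076), by limma. Myh7, Ttn, Tnnt1 and Ryr1 were also higher, by 0.26, 0.40, 0.24 and 0.23, and Musk was lower by a log2 change of -0.15 (adjusted p = 0.0497). These are 9 of 35 members (25.7%) against 32.2% of all clusters in this fit. By sign, 32 of 35 members were above 0 (49.1% of clusters), at a median of 0.27 over the members and 0.00 over all clusters. Higher in replicate 1 were 8 members (16.9% of clusters) and lower was 1 (15.3%). Acta1 and Myh3 differed by more, 0.61 (SE 0.224) and 0.53 (SE 0.289), and did not pass (adjusted p = 0.0636 and 0.174). Pax7 alone had no overlap (4.93% of clusters, higher).

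The difference between replicates was itself uneven. Its median over the members was 0.72 in control AMO alone and 0.49 in pA AMO alone, 0.11 and 0.19 in the same AMOs with PDGF-AA, and 0.35 in 5'ss AMO plus PDGF-AA. In 5'ss AMO alone it was -0.28, where 27 of 35 members were higher in replicate 2, among them Myh3 by 2.19-fold. Over all clusters the medians of the 6 groups ran from -0.018 to 0.006, and 47.2% of clusters were higher in replicate 1 of 5'ss AMO alone. Whether this group differs from the others was not tested, since each group has 1 such pair. With either array of 5'ss AMO alone left out, 21 members were called (17.5% of clusters in that fit), of which 8 are among the 9. With either array of pA AMO alone left out, 5 were called (15.6% of clusters), all among the 9. Array medians over all clusters were 6.14 to 6.22 in replicate 1 and 6.04 to 6.09 in replicate 2. With arrays centred on their medians, the median of all clusters moved by -0.10, 31 members stayed above 0 and 8 were called (45.2% of clusters, of which those higher in replicate 1 made up 7.19% of all). No label says what arrays of a number share, and the part of array medians in this result was not tested.

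Further muscle genes came from a list of 84, none of them members, of which 79 were measured, 13 of these below the 40 percent mark. Between replicates 36 of them were called higher in replicate 1 and 1 lower by limma, with a median of 0.20. As shares these are 45.6% and 1.27% of the 79, beside 16.9% and 15.3% of all clusters. The share of all clusters called higher was 6.71% with repeated quantile normalization and 7.19% with arrays centred on their medians. The 79 genes were not refitted with these scalings. The largest differences were those of Xirp2, an actin-binding protein of muscle (0.47, SE 0.15), Myoz2, a Z-disc protein (0.46, SE 0.095), and the adult myosin Myh2 (0.44, SE 0.074). Xirp2 and Myoz2, with mean values of 5.31 and 5.14, lay below the mark, so signal near background limits both. At the other end were Fbxo32, a ubiquitin ligase of muscle atrophy (-0.19, SE 0.065), Six4 (-0.14, SE 0.063) and Mef2a (-0.14, SE 0.053), of which Fbxo32 passed (adjusted p = 0.0487). In 5'ss AMO alone this list did not follow the members. Its mean deviation from each gene's own mean was -0.02 in replicate 1 and -0.09 in replicate 2, while that of the members was -0.30 and -0.01. For each of the 10 comparisons of PDGF-AA and AMOs 0 of the 79 rose and 0 fell, with and without the block. With pA AMO 66 of 79 were below 0 with PDGF-AA, at a median of -0.10.

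Lists of markers of other cells are set beside the members for the 3 arrays with the most extreme members. In replicate 1 of pA AMO alone, where the mean member stood 0.52 above its own average, FAP and fibroblast markers stood at -0.06, smooth muscle and pericyte markers at 0.12, endothelial markers at 0.05 and adipocyte genes at -0.27. In replicate 2 of control AMO alone, where the mean member was at -0.45, these lists were at 0.04, -0.03, 0.00 and 0.35. In replicate 1 of 5'ss AMO alone (members -0.30) they were at 0.02, 0.21, 0.04 and -0.39. The other muscle genes were at 0.26, -0.20 and -0.02 on these 3 arrays, in the same order. Macrophage and leukocyte markers were at 0.10, -0.06 and 0.06 on these 3 arrays, and were higher in replicate 1 than in replicate 2 of every group. Over all arrays the FAP list moved between -0.07 and 0.06 and the adipocyte list between -0.67 and 0.82, with its highest point in replicate 1 of 5'ss AMO plus PDGF-AA, where the members were at 0.18. The part of adipocyte genes in the members' results was not tested.

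**Figure D5:**
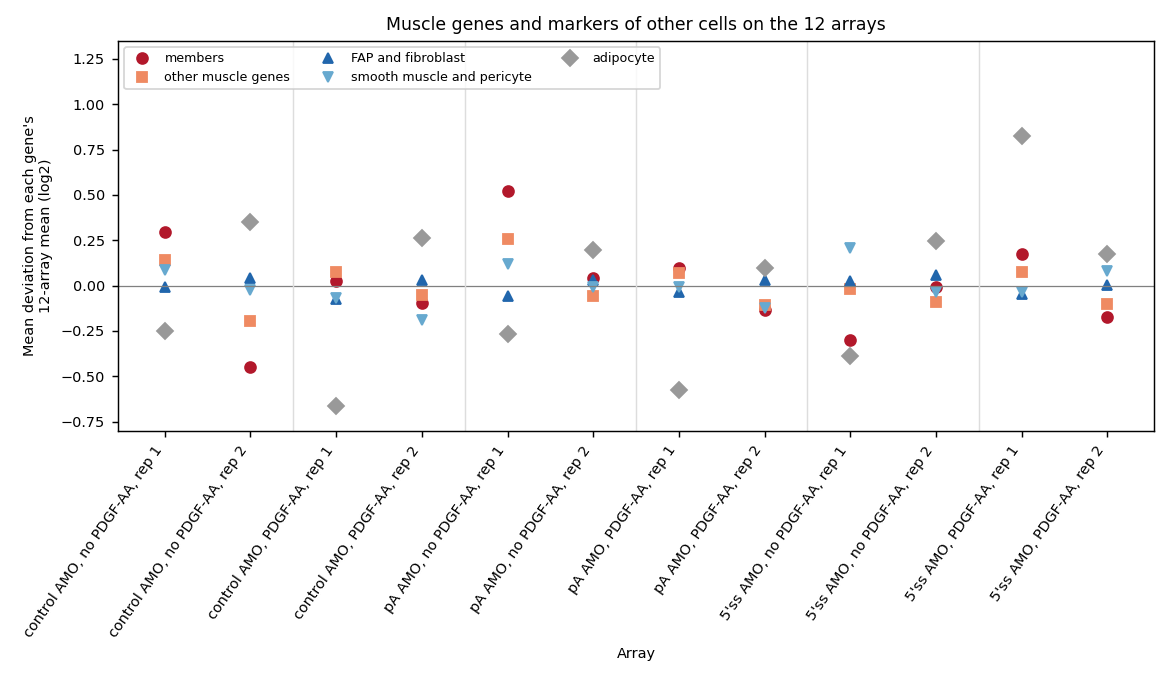
Mean deviation of 5 gene lists from each gene's 12-array mean (log2), by array. Members run from -0.45 to 0.52 and the other muscle genes from -0.20 to 0.26, while FAP and fibroblast markers stay between -0.07 and 0.06.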

How the data were processed

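The deposited log2 expression values were made by the authors with RMA. The program, Affymetrix Expression Console, is named without a version in the submitters' processing notes. RMA corrects background, equalises the arrays' distributions and summarises probes, so levels are relative and changes can be compressed. The table holds 35556 clusters, of which 21789 have 1 gene symbol, 1621 several and 12146 are not listed. One mean per group (6) was fitted to the 12 arrays by limma 3.58.1 in R 4.3.3, adjusting over 21789 clusters by Benjamini-Hochberg at 0.05. The replicate comparison added the number to that model. Scripts were tested on simulated data.

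Same-numbered arrays deviated together in all 15 pairs of groups (correlation 0.20 to 0.61 across clusters, criterion over 0.1), and 12 of 12 arrays matched best an array of their own number. By this the numbers pair the samples, although no label states a pairing. Unless the block is named, SEs, adjusted p-values and smallest p in the comparisons of PDGF-AA and AMOs come from the fit without it. The block can change them: for Ckm and PDGF-AA averaged over AMOs the SE was 0.135 without it and 0.047 with it. Shares of clusters in the report are of the 21789 unless stated. Each replicate pools mice, but no label says whether groups share them, so p-values measure the spread between these arrays. Of 21789 clusters 21698 matched RefSeq gene identifiers (GRCm38.p6), used for names.

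The members, lists and tests were chosen with earlier results of these data known. The members given on all arrays (by the rule set for named genes) are Pax7, Myf5, Myod1, Myog, Mymk, Cdh15, Chrna1, Actc1, Acta1, Myh3, Mylpf, Tnnt3, Des and Itga7, and the member with the smallest p in each comparison. Other named genes are the 10 most like the members and the 3 highest and 3 lowest of the other muscle genes. Members beyond these are named as examples. Tendon, Schwann, macrophage and endothelial lists were also fixed. Alternatives were a replicate block, filters, other scalings, moderation, array weights, only the arrays of the groups compared, and leaving out each array.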

Additional observations from a re-analysis of the deposited data

How the results depend on the processing

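For the 10 comparisons of PDGF-AA and AMOs, 0 members were called under all alternatives run (20 or 21 each). The replicate block changed no member's call: the smallest adjusted p of a member with the block was 0.226, in 5'ss against control AMO, and the counts of members called stayed at 0. Smallest and largest medians without 1 array were -0.33 and 0.40 for PDGF-AA with control AMO, -0.743 and 0.011 for the difference between pA and control AMO, and -0.28 and 0.43 for that between 5'ss and control AMO. For replicate number 1 against 2, the 9 members called (32.2% of clusters) became 4 with repeated quantile normalization (12.9%), 13 of 33 without dim clusters (43%; 8 of them among the 9), 12 with trend and robust moderation (37.7%), and 5 (15.6%) to 21 (17.5%) without 1 array. The count of 21 came without an array of 5'ss AMO alone. With an array left out, its group's mean fits the remaining array exactly, so that group adds nothing to the replicate comparison. Both arrays of a group therefore give the same count. The cause of these changes was not tested. With arrays centred on their medians the members above 0 went from 24 to 16 for PDGF-AA with control AMO and from 13 to 21 for 5'ss against control AMO, with changes near 0. Taking the mean of a gene's rows changed nothing because each member has 1 row. All other values kept their direction or moved by less than the spread of the members' median between replicates (SD 0.31). Signal near background limits Myf5 and Myf6, the 2 members below the 40 percent mark, and Xirp2 and Myoz2 among the other muscle genes named.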

Other observations

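Genes outside the list with the pattern most like the members were ranked by the correlation of their deviations from the group means with the mean deviation of the members, which rests on 6 replicate differences. The 10 closest with a mean log2 value above 6 were Mybph and Actn3 (both 0.98), Myom2, Pdlim3 and Trim72 (each 0.97), Actn2, Klhl41 and Nes (each 0.96), Fgf21 (0.95) and Cavin4 (0.95). Of these, 5 were on the list of other muscle genes. Mybph, Myom2, Actn2 and Actn3 encode sarcomere proteins, Trim72 acts in membrane repair, and Cavin4 is a caveola protein of muscle. Nes, an intermediate filament of progenitor cells that includes myoblasts, ran from 5.89 to 6.66. Fgf21, which encodes a secreted metabolic hormone, ran from 6.08 to 7.19 over the 12 arrays, and Actn3 from 7.30 to 8.59.

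The tendon list, from 7.13 to 7.57 in mean level, and the Schwann cell list, from 6.84 to 7.02, held 9 and 7 measured genes. In pA AMO without PDGF-AA replicate 1 they deviated by 0.04 and 0.04, and in control AMO without PDGF-AA replicate 2 by 0.18 and 0.03.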
